A study of Mus musculus with 55 samples.

Results

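Megakaryocyte-erythroid progenitors (MEPs) of wild-type (WT) mice were compared with common myeloid progenitors (CMPs) of WT mice across all expressed genes. The members were the 4 MEP and the 4 CMP libraries numbered WT2 to WT5, which are 8 of the 46 libraries of the first count table and of 55 in the series, and 15547 of the 55421 genes in that table passed the low-count filter. The series profiled stem and progenitor cells of bone marrow from WT mice and mice lacking Tet2, Sting or both, by bulk RNA-seq of small sorts amplified with a full-length SMART-seq protocol. By the study's gates both populations lacked lineage markers, carried c-Kit and lacked Sca1. CMPs had intermediate or high CD34 with intermediate CD16/32, and MEPs had no CD34 with low CD16/32. The labels give genotype WT and tissue bone marrow for all 8 libraries and name no age or agent, and by the methods all mice had a C57BL/6 background. Whether the WT mice carried floxed alleles or were given poly(I:C) is not given in the sources used here. The mice of the Tet2 knockout libraries used near the end were conditional knockouts (Tet2 f/f with Mx1-Cre, a Cre that acts in blood and in other cells), induced by poly(I:C) weeks before the marrow was taken. The labels do not say that CMPs and MEPs of one number came from one mouse, so p-values measure the spread between these libraries.

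In the classical scheme of blood formation, CMPs can give rise to granulocytes, macrophages, red cells and megakaryocytes, and MEPs to red cells and megakaryocytes. Red cell formation is directed by the transcription factors GATA1 and KLF1, which switch on genes of heme, of the red cell membrane and of globin, and it depends on erythropoietin and its receptor. Granulocyte and macrophage formation is directed by PU.1 (Spi1), C/EBP factors and IRF8, and GATA1 and PU.1 are known to restrain each other. Megakaryocytes share GATA1 and GFI1B with red cells and in addition use FLI1.

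The libraries held 63166885 to 70924660 counts in CMPs and 51706556 to 77013352 in MEPs, and no library stood apart from its group. Libraries of one population correlated at 0.968 to 0.982 on the log2 scale and those of different populations at 0.901 to 0.928. Mitochondrially encoded genes held 5.94% to 6.57% of CMP counts and 6.85% to 9.18% of MEP counts (two-sided exact permutation p = 0.0286, the smallest that 70 splits of 4 against 4 can give). Genes of ribosomal proteins took 9.88% to 10.3% in CMPs and 11.9% to 13.3% in MEPs (exact permutation p = 0.0286). Both shares were higher in every MEP library than in any CMP library, and their part in the gene results below was not tested. Summed levels of the markers fixed for the labels followed them. CPM are read counts relative to the TMM-scaled library size, except in these marker sums, which use the library totals. The 7 erythroid markers summed to 665 to 1761 CPM in CMPs and 13170 to 14997 in MEPs, and the 7 granulocyte-macrophage markers to 4012 to 5962 and 15.9 to 56.9. The 5 megakaryocyte markers summed to 561 to 900.1 in CMPs and 18.7 to 173.8 in MEPs, so markers of the megakaryocyte fate that the name MEP also implies were lower in MEPs than in CMPs, though not at 0. Car1 made up most of the erythroid sum in MEPs, and Pf4 most of the megakaryocyte sum in CMPs. Of the markers of other marrow cells, the 4 marrow macrophage markers and the 4 late neutrophil markers reached at most 2.35 CPM in any library. The 4 B cell markers summed to 44.3 to 76.4 CPM in CMPs and 3.86 to 7.78 in MEPs. For the 5 T and NK cell markers the sums were 8.23 to 12.7 and 0.077 to 1.81.

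By edgeR's quasi-likelihood test, 566 genes were called higher in MEPs, 3.64% of those tested, and 1716 were called lower, 11.0%. To be called, a gene had to reach 2-fold at an adjusted p (Benjamini-Hochberg) not above 0.05. The lower genes were also lower by more. At least an 8-fold change was found for 627 of the lower and 104 of the higher genes, and 109 of the lower genes were at the floor of 3 counts in every MEP library, against 21 of the higher genes in every CMP library. Summed over each library, the called higher genes took 1.84% to 2.42% of the scaled counts in CMPs and 7.34% to 7.75% in MEPs, and the called lower genes 8.07% to 9.42% and 1.88% to 2.21%. At any fold the counts were 1947 higher, 12.5%, and 2330 lower, 15.0%. The lowest MEP library lay above the highest CMP library at 15.4% of genes, and the reverse held at 18.2%. The median log2 fold change (MEP minus CMP, as throughout) of all genes was -0.07.

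**Figure D1:**
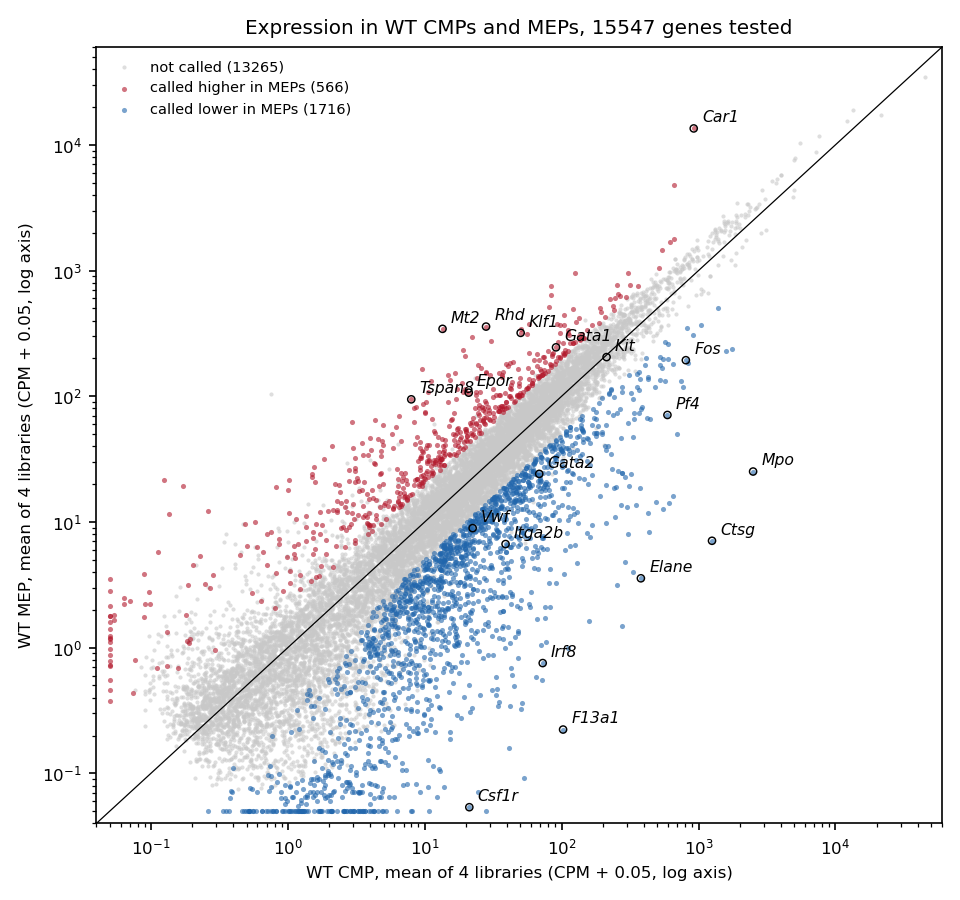
Mean expression of each tested gene in 4 WT CMP libraries (x axis) and 4 WT MEP libraries (y axis), both in CPM plus 0.05 on log axes; red points were called higher in MEPs, blue points lower, and the line marks equal levels. The 1716 lower genes spread far below the line, down to genes with no count in MEPs, while the 566 higher genes lie closer to it, with Car1 standing out at the top.

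Among 24 transcription factors of the erythroid and shared GATA network, 4 were called higher and 2 lower, and the median log2 fold change was 0.32. The shares were 16.7% and 8.33%, beside 3.64% and 11.0% of all genes. Gata1 (ENSMUSG00000031162, chrX:7959260-7978071, minus strand, mm10), the master regulator of red cell genes, stood at 83.2, 92.4, 78.6 and 109.6 CPM in CMP replicates 2 to 5 and at 232, 232, 277 and 238 CPM in MEP replicates 2 to 5. Its log2 fold change was 1.43 (SE 0.12, edgeR adjusted p = 9.6e-05), with no overlap between the groups. Klf1 (ENSMUSG00000054191, chr8:84901928-84905291, plus strand), which activates globin, heme and membrane genes, stood at 50.2, 47.7, 27.8 and 75.1 CPM in CMPs and 257, 250.3, 412 and 357 CPM in MEPs, a log2 fold change of 2.67 (SE 0.30, adjusted p = 0.000372). CMPs thus already held RNA of both factors, and MEPs held more in every library. Gfi1b, a repressor needed in red cells and megakaryocytes, had 2.02 (SE 0.16, adjusted p = 7.29e-05) and the GATA1 target Klf3 2.09 (adjusted p = 0.00478). The genes lower in MEPs were Lyl1, a relative of Tal1, at -1.91 (adjusted p = 0.00276), and Sox6, known for its role in globin silencing, at -1.03 (adjusted p = 0.0251).

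Other members of this network were not called. Gata2, known to precede Gata1 as red cells form, stood at 22.99, 136, 63.8 and 51.4 CPM in CMPs and 3.52, 4.09, 57.1 and 31.6 CPM in MEPs (log2 fold change -1.51, SE 0.90, adjusted p = 0.262). Its level varied widely among the MEP libraries, replicates 2 and 3 being low and replicates 4 and 5 within the range of CMPs. Tal1, the partner of GATA1 in its complex, was higher in every MEP library without reaching 2-fold (29.7, 43.2, 41.3 and 35.2 against 70.2, 63.1, 55.8 and 56.1 CPM, log2 fold change 0.71, adjusted p = 0.00761). Myb had 0.30 (adjusted p = 0.0832) and the GATA1 cofactor Zfpm1 0.35 (adjusted p = 0.615). In a fit of all 22 WT libraries of the 6 populations, which shares 1 estimate of the spread, the fold changes were nearly the same but Gata1 (1.40, adjusted p = 0.478), Klf1 (adjusted p = 0.249) and Gfi1b (adjusted p = 0.225) were not called.

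Genes that carry out red cell functions had the highest median of the 36 gene lists. Of 36 erythroid effector genes tested, 22 were called higher and 1 lower, 61.1% and 2.78% of them against 3.64% and 11.0% of all genes, with a median log2 fold change of 2.36. Their levels summed to 1995 to 4083 CPM in CMPs and 22698 to 24761 CPM in MEPs, where Car1 made up the larger part. Car1 (ENSMUSG00000027556, chr3:14766216-14808368, minus strand), a carbonic anhydrase of red cells that interconverts carbon dioxide and bicarbonate, stood at 1388, 988, 373 and 939 CPM in CMPs and 13054, 14731, 13190.0 and 13027 CPM in MEPs (log2 fold change 3.87, SE 0.35, adjusted p = 0.000122). The 4 MEP libraries lay within a narrow range, while CMP replicate 4 held less than the other CMP libraries. Car2, another carbonic anhydrase of red cells, had 907, 679, 442 and 622 CPM and 4397, 4842, 5034 and 4961 CPM (2.86, SE 0.20, adjusted p = 3.64e-05). Epor, the erythropoietin receptor, had 25.7, 16.6, 21.1 and 20.3 CPM in CMPs and 97.8, 88.6, 128 and 113 CPM in MEPs (2.35, SE 0.17, adjusted p = 4.94e-05).

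Genes of the red cell membrane were among those called. Rhd, which encodes the Rh blood group protein, stood at 58.5, 20.3, 9.29 and 23.9 CPM in CMPs and 322, 333, 432 and 345 CPM in MEPs (3.68, SE 0.50, adjusted p = 0.000932). Its partner Rhag had 3.17 (adjusted p = 0.00248), the blood group protein gene Ermap 3.42 (adjusted p = 4.36e-05) and Kel 2.75 (adjusted p = 5.73e-05). For the membrane skeleton, ankyrin (Ank1) had 2.98 (adjusted p = 0.013) and adducin 2 (Add2) 3.06 (adjusted p = 0.00596), while beta-spectrin (Sptb) had 2.05 and did not pass (adjusted p = 0.0628). Epb42, which encodes protein 4.2 of the mature membrane, was nearly absent from CMPs at 0.248, 0, 0 and 0 CPM and low in MEPs at 7.74, 2.74, 7.27 and 5.08 CPM (5.99, SE 1.38, adjusted p = 0.0112). Blvrb, a biliverdin reductase abundant in red cells, had 190.1, 112, 83.5 and 115 CPM and 1057, 937, 999 and 834 CPM (2.93, adjusted p = 7.31e-05). Cldn13, a claudin made by mouse erythroid cells, had 42.8, 6.81, 7.29 and 19.6 CPM and 224, 196, 293 and 211 CPM (3.60, adjusted p = 0.00218). In the fit of all 22 WT libraries, Car1 (adjusted p = 0.143), Epor (0.247), Rhd (0.128) and Cldn13 (0.134) were not called, with fold changes within 0.1 of those above on the log2 scale.

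The genes of the last steps of red cell formation were not at these levels. Hba-a1, an alpha-globin gene, stood at 60.4, 13.2, 1.9999 and 18.04 CPM in CMPs and 88.7, 117, 256 and 94.8 CPM in MEPs (log2 fold change 2.57, SE 0.84, adjusted p = 0.0506), so the groups did not overlap but the gene was not called. Without CMP replicate 2, the highest of the CMP libraries, its log2 fold change was 3.66 (adjusted p = 0.0115), without CMP replicate 4 it was 2.18 (adjusted p = 0.0407), and DESeq2 called it as well (adjusted p = 0.015). Hbb-bs, a beta-globin gene, had 10.4, 21.3, 4.74 and 12.3 CPM and 18.7, 16.8, 39.5 and 16.995 CPM (0.92, adjusted p = 0.182), with overlap between the groups. Each of these globin genes has a near-identical copy among the 2 alpha and 2 beta genes of the adult, so their single values are uncertain. Slc4a1, the anion exchanger of the mature red cell membrane, did not pass the low-count filter. The called lower member of this group was Bcl2l1, which encodes the survival protein BCL-XL that late red cell precursors need, at 10.4, 12.9, 8.46 and 13.01 CPM in CMPs and 1.73, 1.2000, 4.06 and 2.43 CPM in MEPs (-2.24, SE 0.40, adjusted p = 0.0034).

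**Figure D2:**
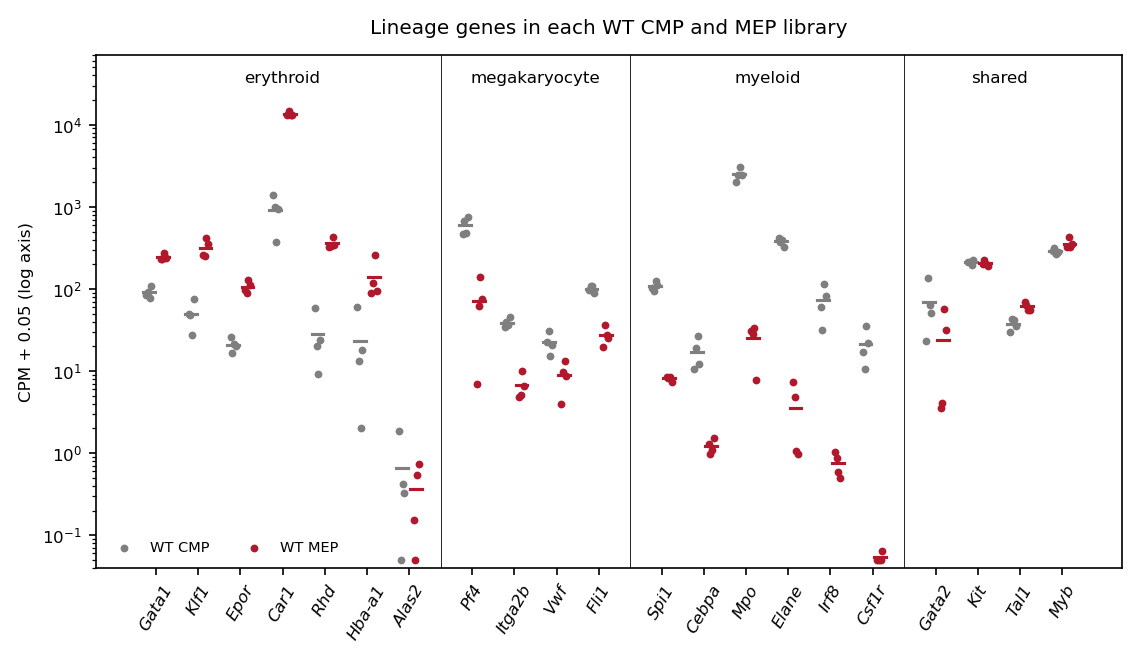
CPM plus 0.05 on a log axis of 21 lineage genes in each of the 4 WT CMP libraries (grey) and 4 WT MEP libraries (red), with a bar at the mean of each group. Gata1, Klf1, Epor, Car1 and Rhd lie higher in every MEP library, the megakaryocyte and myeloid genes lie lower in every MEP library, and Gata2, Kit and Alas2 overlap.

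Of 28 genes of heme synthesis and iron uptake, 11 were called higher, 1 was called lower and 16 were not called. Beside 3.64% and 11.0% of all genes, 39.3% and 3.57% of these genes were called higher and lower. Their median log2 fold change was 0.87, and 22 of the 28 had a value above 0. Enzymes called higher included several that act after the first step. Alad had 299, 229, 211 and 270.3 CPM and 785, 708, 863 and 739 CPM (1.62, SE 0.12, adjusted p = 5.73e-05), Urod 1.54 (adjusted p = 2.28e-05), Cpox 2.53 (adjusted p = 0.00015) and Fech, which inserts the iron, 1.53 (adjusted p = 0.00723). The first step is made by 2 enzymes. Alas2, the erythroid form, stood at 1.7998, 0, 0.376 and 0.274 CPM in CMPs and 0.105, 0, 0.487 and 0.682 CPM in MEPs (log2 fold change -0.88, SE 1.53, adjusted p = 0.726), close to 0 in both populations. Alas1, the form found in all tissues, was lower in MEPs, at 38.5, 37.8, 49.8 and 42.4 CPM and 16.6, 19.1, 19.9 and 22.04 CPM (-1.12, SE 0.15, adjusted p = 0.000799). For iron, the transferrin receptor gene Tfrc had 88.6, 84.4, 111 and 102 CPM and 313, 282, 337 and 336 CPM (1.71, SE 0.11, adjusted p = 3.17e-05). Its helpers Steap3 and Slc11a2, which reduce iron and carry it out of the endosome, had 1.58 (adjusted p = 0.00182) and 1.76 (adjusted p = 0.000499), and Glrx5, which serves iron-sulfur clusters, 1.96 (adjusted p = 1.92e-05).

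GATA factors are known to bind the letters AGATAA and KLF factors CACCC, and both were looked for on either strand in the 250 bases before the start sites that RefSeq lists (GRCm38.p6). Windows were matched for 411 of the 566 genes called higher, 72.6%, and for 64.6% of all genes tested, which is too few for a comparison of shares, so that check is void. As a description, AGATAA lay in the window of 10.7% of the matched higher genes, 8.91% of the matched lower genes and 7.69% of all matched genes, and CACCC in 66.4%, 66.5% and 60.5%. Over all 32851 windows of the table the shares were 9.99% and 52.0%. The 120 bases before the start sites of 4 genes described here are shown to let the letters be seen in place, 5′ to 3′ on the gene's own strand, with AGATAA or CACCC of either strand (TTATCT and GGGTG as read on the other) in capitals. Those of Rhd (chr4:134864416-134864535, plus strand) and Epor (chr9:21963577-21963696, minus strand) hold AGATAA of either strand. That of Gata1 (chrX:7967911-7968030, minus strand) holds CACCC at 2 places, and that of Pf4 (chr5:90772315-90772434, plus strand), which was lower in MEPs, holds neither. They were chosen with their letters known and do not stand for their groups. The same stretches of Klf1, Gfi1b and Aqp1, which were higher in MEPs, hold no AGATAA, and those of Elane, Mpo and Ctsg, which were lower, hold CACCC.
Rhd: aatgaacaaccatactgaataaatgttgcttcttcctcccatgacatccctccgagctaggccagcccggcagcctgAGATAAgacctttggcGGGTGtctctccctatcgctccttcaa
Epor: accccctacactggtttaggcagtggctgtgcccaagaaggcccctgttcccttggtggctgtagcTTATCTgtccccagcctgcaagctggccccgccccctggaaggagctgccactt
Gata1: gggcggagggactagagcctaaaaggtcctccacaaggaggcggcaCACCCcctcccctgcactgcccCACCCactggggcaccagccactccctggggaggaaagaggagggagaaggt
Pf4: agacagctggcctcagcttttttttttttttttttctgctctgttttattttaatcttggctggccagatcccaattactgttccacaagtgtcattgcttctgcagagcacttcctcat
A match of letters is not a bound site, the absence of letters says nothing of a factor, and no binding was measured in these libraries.

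Most genes of megakaryocytes and platelets were lower in MEPs than in CMPs. Of 27 tested, edgeR called 20 lower and 0 higher, with a median log2 fold change of -2.27. No member was higher at an unadjusted p under 0.05 (0 of 27), and DESeq2 called 22 lower and 0 higher. Pf4 (ENSMUSG00000029373, chr5:90772435-90773383, plus strand), platelet factor 4, stood at 471, 679, 476 and 744 CPM in CMPs and 7.0002, 61.8, 139.9 and 74.98 CPM in MEPs (log2 fold change -3.06, SE 0.70, adjusted p = 0.0109). The MEP libraries differed among themselves, replicate 2 being far below the other MEP libraries. Itga2b, the CD41 part of the fibrinogen receptor, had 34.01, 39.1, 36.6 and 45.8 CPM and 4.77, 5.13, 10.1 and 6.504 CPM (-2.55, SE 0.26, adjusted p = 0.000227). Vwf, von Willebrand factor, had 22.5, 31.1, 15.3 and 20.5 CPM and 3.92, 9.57, 13.2 and 8.78 CPM (-1.33, SE 0.37, adjusted p = 0.0257). In each of these genes the highest MEP library lay below the lowest CMP library.

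Further megakaryocyte genes moved the same way. Fli1, the transcription factor that opposes KLF1 in the choice between megakaryocytes and red cells, had 97.1, 107, 108 and 89.4 CPM and 19.8, 36.5, 27.2 and 25.05 CPM (-1.89, SE 0.19, adjusted p = 0.000184), and pleckstrin (Plek) -3.74 (adjusted p = 3.17e-05). P-selectin (Selp), a platelet granule protein, had -4.28 (adjusted p = 0.015), the receptor parts Gp1bb and Gp9 -2.43 (adjusted p = 0.0134) and -2.10 (adjusted p = 0.0206), and Cd9 -1.76 (adjusted p = 0.000439). Members that did not pass included Gp5 at 0.04 and Tubb1, the platelet tubulin, at 0.51. The call of Vwf was lost without CMP replicate 2 or 3 or MEP replicate 3 or 5 (adjusted p from 0.0529 to 0.0715) and with the replicate number as a block (0.056). In the fit of all 22 WT libraries neither Vwf (adjusted p = 0.293) nor Itga2b (0.226) was called. In bulk samples fewer cells of a type and less RNA per cell cannot be told apart.

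Most regulators of the granulocyte and monocyte lineages were lower in MEPs. Of 22 tested, edgeR called 16 lower and 0 higher, with a median of -2.38. None was higher at an unadjusted p under 0.05, and DESeq2 called 18 lower and 0 higher. Spi1 (ENSMUSG00000002111, chr2:91082390-91115756, plus strand), which encodes PU.1, stood at 102, 95.5, 127 and 112 CPM in CMPs and 8.41, 8.27, 8.42 and 7.38 CPM in MEPs (log2 fold change -3.74, SE 0.13, adjusted p = 3.96e-06). All MEP libraries lay close together and far below the lowest CMP library. Cebpa, which starts the granulocyte programme, had 10.6, 18.8, 26.8 and 12.3 CPM and 1.24, 0.929, 1.05 and 1.49 CPM (-3.83, SE 0.37, adjusted p = 0.00016). Irf8, which directs monocyte and dendritic cell fate, had 60.6, 31.4, 116 and 82.6 CPM and 0.991, 0.829, 0.541 and 0.455 CPM (-6.64, SE 0.49, adjusted p = 4.91e-05). Gfi1, the relative of Gfi1b in granulocytes, stood at 2.05, 3.19, 6.19 and 1.31 CPM in CMPs and at 0 in every MEP library, at least 66.3-fold lower against the floor of 3 counts per library, while Gfi1b was higher as given above. Runx1 (-1.54, adjusted p = 7.77e-05) and Etv6 (-2.01, adjusted p = 6.34e-05) were lower as well.

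Genes of primary granules, the enzyme stores that neutrophil precursors fill first, had a median of -4.85, with 19 of 20 called lower and 0 higher by edgeR and by DESeq2, and 0 higher at an unadjusted p under 0.05. Mpo (ENSMUSG00000009350, chr11:87793581-87804413, plus strand), myeloperoxidase, stood at 2026, 2434, 3091 and 2460.2 CPM in CMPs and 30.9, 28.5, 33.3 and 7.81 CPM in MEPs (-6.64, SE 0.48, adjusted p = 4.36e-05). Elane (ENSMUSG00000020125, chr10:79886247-79888215, plus strand), neutrophil elastase, had 422, 376, 395 and 324 CPM and 7.295, 4.81, 1.01 and 0.925 CPM (-6.76, SE 0.73, adjusted p = 0.000295), and the protease Ctsg 1176, 1118, 1603 and 1119 CPM and 15.5, 2.96, 5.31 and 4.32 CPM (-7.48, SE 0.59, adjusted p = 6.34e-05). Clec12a, a lectin receptor of myeloid cells, had -7.56 (adjusted p = 3.65e-05) and lysozyme (Lyz2) -4.33 (adjusted p = 1.26e-05). The one member not called was Srgn, the proteoglycan that packs granules in many blood cells, at 2000.3, 1947, 1752 and 1743 CPM and 1126, 1528, 872 and 888 CPM (-0.75, adjusted p = 0.0111). Of 18 late neutrophil genes, 10 did not pass the low-count filter, among them Ltf, Ngp, Camp and Lcn2, which fill the later granules. The 8 tested summed to 130 to 178 CPM in CMPs and 11.3 to 14.2 CPM in MEPs, of which Anxa1 made up the larger part. Of the 8 tested, 5 were called lower and 0 higher, with Anxa1, an inhibitor of inflammation, at 137, 155, 112 and 111 CPM and 11.2, 12.6, 13.03 and 11.2 CPM (-3.42, adjusted p = 9.38e-06).

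Monocyte, macrophage and dendritic cell genes gave 17 called lower and 1 higher of 25, with a median of -4.26. Csf1r (ENSMUSG00000024621), the receptor that macrophages need, stood at 16.9, 10.7, 35.2 and 21.8 CPM in CMPs and at or under the floor in every MEP library, at least 439.8-fold lower. F13a1, a coagulation factor subunit of monocytes, had 60.2, 93.6, 136 and 120.1 CPM and 0.464, 0.229, 0 and 0 CPM (-9.10, adjusted p = 0.000207). Ccr2, which guides monocytes out of the marrow, had 121, 190.4, 408 and 296 CPM and 2.11, 3.7001, 4.18 and 2.46 CPM (-6.33, adjusted p = 4.42e-05), and Tyrobp, a signalling adaptor of myeloid cells, 133, 134, 221 and 147 CPM and 3.48, 1.16, 1.298 and 0.394 CPM (-6.65, adjusted p = 0.000143). The exception was Zbtb46, a transcription factor best known from dendritic cells, at 9.53, 2.89, 2.07 and 0.711 CPM and 15.3, 42.5, 47.4 and 30.7 CPM (3.15, SE 0.74, adjusted p = 0.0124). Among genes with at least 50 CPM on average in the higher population, the largest log2 fold change was that of Ccr1, a chemokine receptor of myeloid cells, at 28.98, 31.5, 88.2 and 64.2 CPM in CMPs and 0.169, 0, 0 and 0 CPM in MEPs (-9.72, SE 0.91, adjusted p = 0.000143). Of 19 basophil, mast cell and eosinophil genes, 9 were tested, of which 4 were called lower, 1 was called higher and 4 were not called. The protease Cpa3 had 135, 103, 141 and 118 CPM and 15.8, 14.6, 8.83 and 6.49 CPM (-3.44, adjusted p = 9.2e-05), Mcpt8 -6.47 (adjusted p = 0.00446) and the histamine enzyme Hdc -5.03 (adjusted p = 0.000258). The 1 member higher in MEPs was Il1rl1, the IL-33 receptor, at 7.76, 9.41, 6.21 and 19.7 CPM and 25.6, 29.2, 30.7 and 37.6 CPM (1.51, SE 0.35, adjusted p = 0.0122). Il1rl1 (adjusted p = 0.268), Mcpt8 (0.0659) and Cebpa (0.142) were not called in the fit of all 22 WT libraries.

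CMP libraries differed from each other in both directions of these lineages. CMP replicate 4 had the lowest sum of erythroid effector genes, 1995 CPM, and the highest sum of primary granule genes, 12119 CPM. CMP replicate 2 had the highest erythroid sum, 4083 CPM, with 10151 CPM of primary granule genes, and replicates 3 and 5 lay between them in the erythroid sum at 3019 and 2905 CPM. Single genes did not all share this order. Replicate 4 was lowest of the 4 in Car1, Rhd and Klf1 and highest in Irf8, Csf1r, Mpo and Ctsg, but Epor and Cldn13 were lowest in replicate 3 and Elane was highest in replicate 2. The MEP libraries had 22698 to 24761 CPM of erythroid and 1519 to 2382 CPM of primary granule genes, of which Srgn made up the larger part. Without CMP replicate 4 the calls were 551 higher and 1521 lower, and without CMP replicate 2 they were 654 and 1596.

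Of 29 cytokine receptor genes tested, 2 were called higher in MEPs, Epor and Il1rl1, 16 were called lower and 11 were not called. Flt3 stood at 46.95, 104, 73.8 and 83.8 CPM in CMPs and 1.98, 0.30001, 1.82 and 0.09096 CPM in MEPs (-6.18, SE 0.86, adjusted p = 0.000994). Csf3r, the receptor for granulocyte colony-stimulating factor, had 44.4, 51.8, 49.2 and 46.8 CPM and 1.31, 0.0571, 1.68 and 0.09096 CPM (-5.90, adjusted p = 0.00192), and both chains of the IL-6 receptor were nearly absent from MEPs, Il6ra at -7.85 (adjusted p = 0.000565) and Il6st at -6.60 (adjusted p = 0.00136). The shared chain Csf2rb had -3.21 (adjusted p = 0.00206), with reads that its copy Csf2rb2 can share. The chains of the type I interferon receptor, Ifnar1 (-1.23, adjusted p = 0.0384) and Ifnar2 (-1.003, adjusted p = 0.000994), were lower by about the call threshold, and Ifnar2 fell short of 2-fold without CMP replicate 4 or 5 or MEP replicate 2 or 5 (smallest at -0.93, without MEP replicate 5). Kit, the stem cell factor receptor on which both populations were gated, did not differ beyond the spread, at 210.3, 215, 198 and 228 CPM and 200.1, 227, 203 and 189 CPM (-0.06, SE 0.09, adjusted p = 0.691).

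Genes that the gates used are given as a check. Cd34 stood at 508, 524, 629 and 548 CPM in CMPs and 10.6, 9.23, 25.4 and 5.59 CPM in MEPs, Fcgr3 at 18.96, 14.4, 20.9 and 23.2 CPM and 0.0843, 0.271, 0.987 and 0.09096 CPM, and Fcgr2b at 39.999, 50.4, 39.1 and 42.1 CPM and 1.41, 4.49, 2.73 and 0.0758 CPM. RNA of the markers used to part the populations therefore followed the sort, with Cd34 low but not 0 in MEPs.

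Stem cell genes gave 17 called lower and 1 higher of 28, with a median of -2.23. Angpt1, a ligand made by stem and progenitor cells, had 271, 304, 248 and 272 CPM and 50.4, 59.8, 40.7 and 35.6 CPM (-2.55, SE 0.17, adjusted p = 2.98e-05). Sox4 had 114, 177, 154 and 125 CPM and 44.2, 45.7, 48.2 and 35.2 CPM (-1.72, adjusted p = 0.000168), Myct1 -2.10 (adjusted p = 0.000135) and the homeobox gene Hoxa9 -1.54 (adjusted p = 0.00244). The defining stem cell markers were low already in CMPs, the summed level of Hlf, Mecom, Procr and Fgd5 being 16.8 to 32.0 CPM against 0.933 to 4.58 CPM in MEPs. The exception was Mllt3, a chromatin reader that maintains stem cells and also acts in erythroid and megakaryocyte fate, at 14.7, 24.9, 11.1 and 15.01 CPM and 76.5, 77.7, 70.5 and 71.9 CPM (2.17, SE 0.23, adjusted p = 0.000294). Lymphoid genes gave 11 called lower and 0 higher of 16, with a median of -3.83. Ighm stood at 128, 135, 199 and 151 CPM in CMPs and 1.48, 2.64, 12.3 and 16.1 CPM in MEPs (-4.23, adjusted p = 0.00266), and Dntt, the template-independent polymerase of early lymphoid cells, had -6.21 (adjusted p = 0.00276). The 4 B cell markers summed to 44.3 to 76.4 CPM in CMPs and 3.86 to 7.78 in MEPs, and the 5 T and NK cell markers to 8.23 to 12.7 and 0.077 to 1.81, with Ncr1 at 0 in all 8 libraries and Cd3e at 0 in MEPs. The part of B or T cells in these values was not tested. Of 7 T and NK cell genes tested, 2 were called lower, Lck and Nkg7, of which Nkg7 also stands in the granule list. That share was 28.6%, beside 11.0% of all genes.

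Adhesion and homing genes were lower in 17 of 33 and higher in 1. The tetraspanin Cd53 had 420.1, 412, 457 and 430.1 CPM and 20.96, 9.66, 10.1 and 6.56 CPM (-5.19, SE 0.36, adjusted p = 3.64e-05), the P-selectin ligand Selplg -1.82 (adjusted p = 7.36e-05) and Cxcr4, which holds progenitors in the marrow, -1.58 (adjusted p = 0.00144). The member higher in MEPs was the tetraspanin Cd82 at 1.66 (adjusted p = 0.000552). Of 8 macrophage and stroma genes tested, 4 were called lower, namely Adgre1, Pdgfrb, Pecam1 and Emcn. C1qa was at 0 in every library, and C1qb and C1qc in every MEP library.

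**Figure D3:**
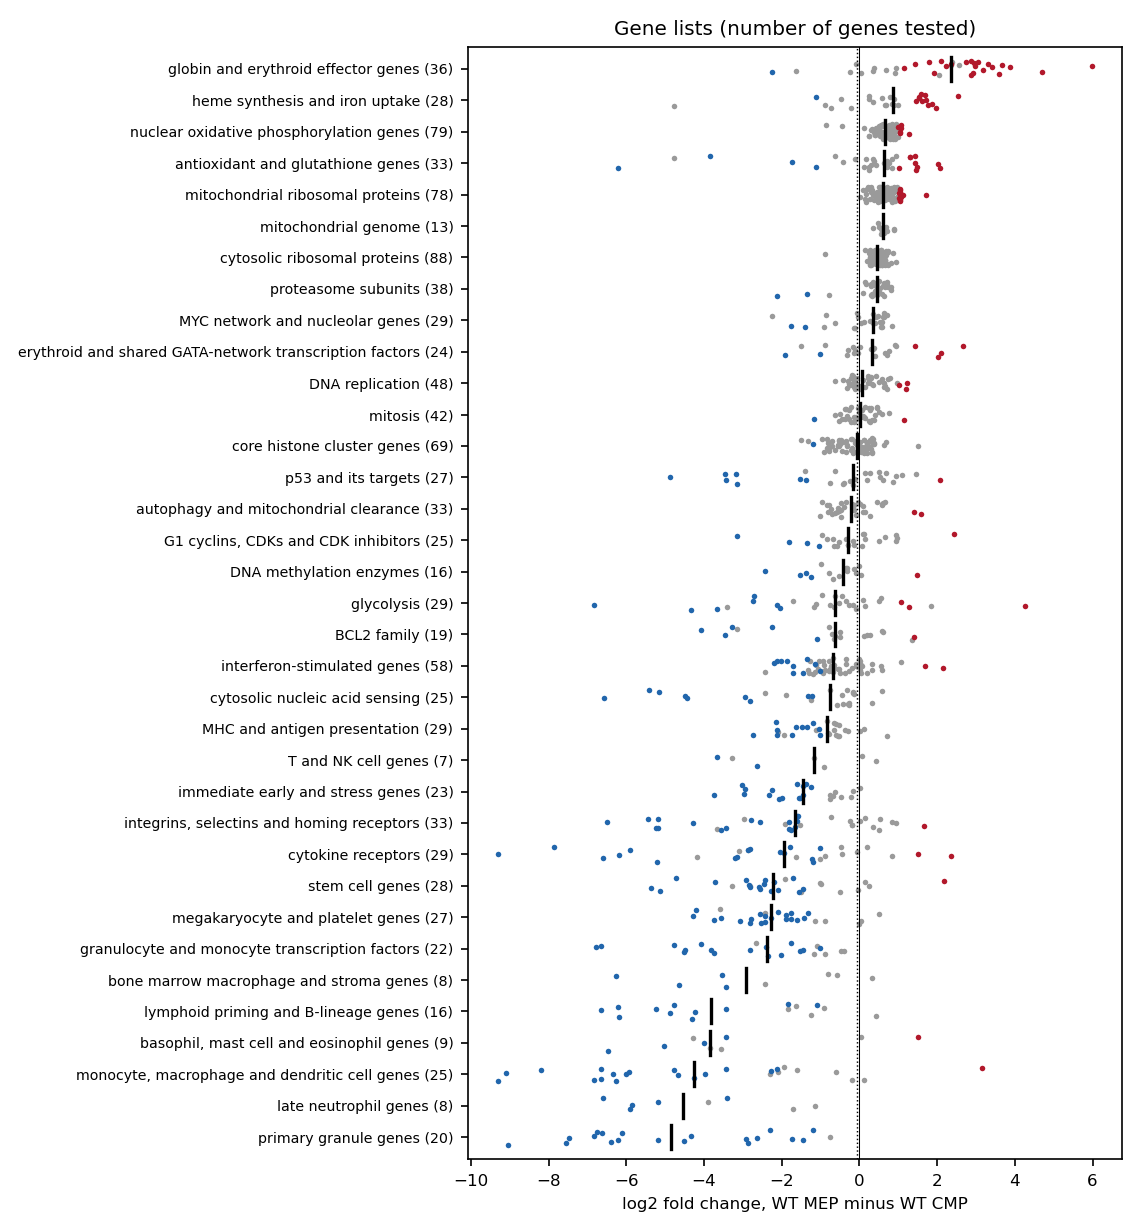
Log2 fold change, WT MEP minus WT CMP (x axis), of each tested member of 35 gene lists, with the number of genes tested in brackets; red points were called higher, blue points lower, black bars mark list medians, and the dotted line marks the median of all genes, -0.07. Medians run from 2.36 for globin and erythroid effector genes down to -4.85 for primary granule genes, and most members of the mitochondrial and ribosomal lists lie above 0, among them 87 of 88 cytosolic ribosomal protein genes and 77 of 79 nuclear oxidative phosphorylation genes.

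Most immediate early genes, which cells switch on within minutes of a stimulus, were lower in MEPs. Of 23 tested, 15 were called lower and 0 higher, with a median of -1.45. Fos had 559, 827, 796 and 1049.8 CPM and 152, 224, 187 and 210.0 CPM (-2.06, SE 0.20, adjusted p = 0.000156), the RNA decay factor Zfp36 346, 619, 394 and 549 CPM and 121, 141, 99.9 and 115 CPM (-2.0001, SE 0.20, adjusted p = 0.000192), Dusp1 -1.24 (adjusted p = 0.00224), Btg2 -1.60 (adjusted p = 0.00032) and Nr4a1 -3.74 (adjusted p = 0.000315). By edgeR none was higher at an unadjusted p under 0.05, and DESeq2 called 15 lower and 0 higher.

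Most mitochondrial and ribosomal genes were higher in MEPs, by less than 2-fold in the main. Of 79 nuclear genes of oxidative phosphorylation, 70 were higher at an adjusted p of 0.05 and any fold (12.5% of all genes were), 8 reached 2-fold and none was called lower, with a median of 0.66. Atp5g1, a subunit of ATP synthase, had 338, 329, 297 and 307 CPM and 872, 820.3, 685 and 695 CPM (1.27, SE 0.10, adjusted p = 6.34e-05), and Cox6a1 1.08 (adjusted p = 0.000471). Of 78 genes of mitochondrial ribosomal proteins, 57 were higher at any fold and 11 at 2-fold, with Mrpl52 highest at 1.70 (SE 0.26, adjusted p = 0.0017). The mitochondrial genome had 12 of 13 genes higher at any fold and 0 called at 2-fold, with a median of 0.61, from mt-Co1 at 0.35 to mt-Nd1 at 0.90. Of 88 cytosolic ribosomal protein genes, 68 were higher at any fold and 0 were called at 2-fold, with a median of 0.45. Members close to 2-fold did not keep their calls throughout: Cox6c (1.004) fell short without CMP replicate 3, 4 or 5 or MEP replicate 2 (0.93 to 0.98), Cox7b (1.05) without MEP replicate 2 or 3, and Mrpl35 (1.01), Mrpl50 (1.05) and Mrps28 (1.05) in at least one case. Without any scaling beyond the library totals, which lowered the median of all genes by 0.16 to -0.23, the medians were 0.50, 0.45 and 0.29 for oxidative phosphorylation, mitochondrial ribosomal and cytosolic ribosomal genes.

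Among glycolysis genes, 7 of 29 were called lower and 3 higher, and forms of the same enzyme stood on both sides. The shares called lower and higher were 24.1% and 10.3%, beside 11.0% and 3.64% of all genes. Pkm, the pyruvate kinase of most tissues, stood at 215, 257, 340.1 and 283 CPM in CMPs and 22.9, 6.06, 13.9 and 11.1 CPM in MEPs (-4.34, SE 0.39, adjusted p = 0.000116). Pklr, the form of liver and red cells, stood at 2.33, 2.34, 0.255 and 3.26 CPM in CMPs and 40.8, 29.9, 45.3 and 43.3 CPM in MEPs (4.26, SE 0.63, adjusted p = 0.00135). The kinases thus moved in opposite directions, with no overlap between the groups in either. Phosphofructokinase did so as well, the platelet form Pfkp at -2.04 (adjusted p = 0.00481) and the muscle form Pfkm, which red cells also use, at 1.27 (adjusted p = 0.00303). Hexokinases Hk2 (-2.12, adjusted p = 0.000246) and Hk3 (-6.83, adjusted p = 0.000209), the mutase Pgam1 (-2.73, adjusted p = 2.18e-05) and the glucose carrier Slc2a1 (-3.66, adjusted p = 0.000294) were lower. The lactate carrier Slc16a1 was higher at 1.06 (adjusted p = 0.00105), but under 2-fold without CMP replicate 4 (0.98) or MEP replicate 5 (0.95).

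Of 33 antioxidant and glutathione genes, 9 were called higher and 4 lower, with a median of 0.63. These were shares of 27.3% and 12.1% beside 3.64% and 11.0% of all genes, the lower share being near that of all genes. Peroxiredoxins, which remove peroxide, were among the higher genes. Prdx2, the form most abundant in red cells, had 657, 467, 522 and 513 CPM and 1596, 1431, 1577 and 1268 CPM (1.44, SE 0.12, adjusted p = 8.74e-05), Prdx6 709, 621, 686 and 626 CPM and 1604, 2299.7, 1795 and 1419 CPM (1.43, SE 0.14, adjusted p = 0.000193) and the mitochondrial Prdx3 1.30 (adjusted p = 2.04e-05). The quinone reductase Nqo1 had 2.06 (adjusted p = 0.000501) and the glutathione transferase Gstp1 1.29 (adjusted p = 0.000194). Lower members were Mgst1, Mgst2, Gstm1 and Gstt1, from -6.21 for Mgst1 to -1.13 for Gstt1.

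Cell cycle genes gave few calls. Of 48 DNA replication genes 3 were called higher and 0 lower (median 0.07, and -0.08 without scaling), and of 42 mitosis genes 1 was called in each direction (median 0.02, and -0.14 without scaling). Called higher were 6.25% of the replication genes and 2.38% of the mitosis genes, beside 3.64% of all genes. Called lower were 0.0% and 2.38%, beside 11.0%. The replication genes called were Cdc6, Orc2 and Rfc4, and the mitosis genes were Cenpa (1.15, adjusted p = 0.000493) and Kif23 (-1.17, adjusted p = 0.00155). Among cyclins, kinases and inhibitors of the first gap phase, 1 of 25 genes was called higher and 4 lower, shares of 4.0% and 16% beside 3.64% and 11.0% of all genes. Ccne1, cyclin E, had 36.9, 8.096, 16.1 and 19.2 CPM and 112, 72.3, 139 and 111 CPM (2.43, SE 0.42, adjusted p = 0.00297). Cdkn1a, the inhibitor p21, had 255, 192, 239.5 and 241 CPM and 41.8, 13.6, 31.2 and 18.5 CPM (-3.14, SE 0.34, adjusted p = 0.000283). Ccnd2, cyclin D2, had -1.04 (adjusted p = 0.00113) and lost its call, at -0.99 to -0.93, without CMP replicate 4 or MEP replicate 3 or 4, and Cdk6 had -0.52 (adjusted p = 0.00139), under 2-fold. Cdkn2d and E2f7 were the remaining lower genes. In the fit of all 22 WT libraries Ccne1 (0.205), Cdc6 (0.471), Cenpa (0.114) and Kif23 (0.132) were not called, by adjusted p.

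Of 19 genes of the BCL2 family, which decide on survival or death, 5 were called lower and 1, Bcl2l13, higher. These were shares of 26.3% and 5.26% beside 11.0% and 3.64% of all genes, with a list median of -0.64. Bcl2 had 67.6, 80.6, 77.9 and 65.8 CPM and 4.62, 8.71, 8.56 and 7.85 CPM (-3.29, SE 0.22, adjusted p = 3.17e-05), and Mcl1, needed by most blood progenitors, 108, 106, 114 and 104 CPM and 52.4, 62.7, 43.7 and 43.01 CPM (-1.10, SE 0.14, adjusted p = 0.000589). With Bcl2l1 given above, the RNA of 3 main inhibitors of cell death was thus lower in every MEP library. Of the genes that promote death, Pmaip1 was lower (-3.46, adjusted p = 0.00233) and Bax (0.61), Bak1 (0.20) and Bid (0.12) were not called. Of 27 genes of p53 and its targets 7 were called lower and 1 higher, shares of 25.9% and 3.7%, with a median of -0.17. Among them were Cdkn1a and Tigar (-4.87, adjusted p = 0.0414), lower, and Gadd45a, higher at 2.07 (SE 0.33, adjusted p = 0.00178). Of 33 genes of autophagy, which clears mitochondria from maturing red cells, 2 were called higher and 0 lower. They were Optn (1.57, adjusted p = 0.00232) and Wipi1 (1.40, adjusted p = 0.00963), 6.06% of the list beside 3.64% of all genes. At any fold 6 autophagy genes were higher and 8 lower, and the median was -0.20.

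Genes tied to the study's subject, DNA methylation and the sensing of nucleic acids, were described in the same way. Of 16 genes of DNA methylation and its enzymes, 4 were called lower and 1 higher. Tet2 itself had 24.3, 25.1, 18.5 and 20.1 CPM and 14.6, 11.3, 14.3 and 11.2 CPM (-0.77, SE 0.18, adjusted p = 0.0125), lower in every MEP library but under 2-fold. Tet1 had -1.52 (adjusted p = 0.0104), Dnmt3b -1.38 (adjusted p = 0.000748), and Idh1 and Idh2, which make the cofactor of TET enzymes, -2.44 (adjusted p = 6.34e-05) and -1.24 (adjusted p = 0.000124). The reader Mbd2 was higher at 1.49 (SE 0.21, adjusted p = 0.00113). Of 25 genes of cytosolic and endosomal sensing, 9 were called lower, 36.0% beside 11.0% of all genes, and 0 higher. Tmem173, which encodes STING, stood at 37.9, 76.2, 61.9 and 61.5 CPM in CMPs and 1.77, 3.54, 3.095 and 2.395 CPM in MEPs (-4.44, SE 0.30, adjusted p = 3.49e-05), and the DNA sensor Cgas had 19.98, 20.3, 18.2 and 17.5 CPM and 9.68, 8.3003, 7.25 and 5.25 CPM (-1.32, SE 0.22, adjusted p = 0.00234). Casp1 had -2.82 (adjusted p = 1.92e-05) and Unc93b1, which carries Toll-like receptors to endosomes, -5.15 (adjusted p = 0.000119).

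Of 58 interferon-stimulated genes, 10 were called lower and 2 higher, shares of 17.2% and 3.45% beside 11.0% and 3.64% of all genes. Higher members were Oasl1 (2.16, adjusted p = 0.0148) and Isg20 (1.68, adjusted p = 0.000932). Ifitm3 had 348, 333, 386 and 391 CPM and 155, 103, 100.5 and 86.03 CPM (-1.72, SE 0.18, adjusted p = 0.000227), with reads that other Ifitm genes can share. The immunoproteasome gene Psmb8 had 495, 590.2, 586 and 612 CPM and 147, 142, 122 and 114 CPM (-2.12, SE 0.11, adjusted p = 1.88e-05) and Psmb9 -1.35 (adjusted p = 0.000614). They were the only 2 called of 38 proteasome genes, whose median was 0.45. Of 29 genes of antigen presentation 11 were called lower and 0 higher, H2-DMa at -1.74 (adjusted p = 0.000922) among them. The call of H2-T23 (-1.05, adjusted p = 0.0208) was lost without CMP replicate 3 or 4 or MEP replicate 2 or 5 (adjusted p from 0.0511 to 0.0569). Of 29 genes of the MYC network and the nucleolus 2 (6.9%, beside 11.0% of all genes) were called lower, Mxd1 and Mxd3. At any fold 11 of them were higher (12.5% of all genes were), with a list median of 0.35. Of 69 histone genes 1 (1.45%) was called lower, H1f0. By edgeR and by DESeq2 0 were called higher in both groups, with 15 and 2 higher at an unadjusted p under 0.05.

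For the other lists with no call in one direction, DESeq2 made 0 calls in that direction as well. Genes higher in MEPs at an unadjusted p under 0.05 numbered 0 in the late neutrophil, lymphoid, T and NK cell, macrophage and stroma, and gate lists and 1 each in the sensing and antigen presentation lists. They numbered 13 of the 13 mitochondrial genome genes, 76 of 88 cytosolic ribosomal and 32 of 38 proteasome genes, whose shifts were under 2-fold. Genes lower at that p numbered 3 of 48 for replication, 13 of 33 for autophagy and 1 of 88 for cytosolic ribosomal proteins. With genes at the floor set to their bounds, the median of the late neutrophil list was -4.50 in place of -4.53, and the medians of the other lists were the same.

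Several of the genes named for the size of their change belong to none of these groups. Mt2 (ENSMUSG00000031762, chr8:94172664-94173568, plus strand), a metallothionein that binds zinc and copper, stood at 20.96, 14.3, 6.36 and 12.2 CPM in CMPs and 315, 414, 359 and 286 CPM in MEPs (4.67, SE 0.35, adjusted p = 5.49e-05). Atp7b, a copper exporter, stood at 17.6, 9.06, 7.44 and 10.4 CPM and 112, 120.2, 149 and 142 CPM (3.55, SE 0.28, adjusted p = 5.9e-05). Separate groups were a condition of the rule that named both of these genes of metal handling, so their lack of overlap is no result. Nfia, a transcription factor that promotes red cell over granulocyte fate, had 5.17, 3.45, 0.456 and 2.52 CPM and 143, 19.1, 58.1 and 27.8 CPM (4.41, SE 0.86, adjusted p = 0.00508), with MEP replicate 2 far above the other MEP libraries. Slc25a21, a mitochondrial carrier, had 17.1, 8.86, 2.201 and 9.699 CPM and 124, 173, 165 and 199.9 CPM (4.13, SE 0.54, adjusted p = 0.000721), and Slc38a5, an amino acid carrier, 39.3, 14.1, 11.4 and 24.1 CPM and 281, 291, 320.5 and 282 CPM (3.72, SE 0.38, adjusted p = 0.000206). Aldh1a7, a retinal dehydrogenase relative whose reads its near copy Aldh1a1 can share, had 3.93 (SE 0.24, adjusted p = 2.18e-05). The tetraspanin Tspan8 had 3.57 (adjusted p = 8.59e-05), the collagen gene Col5a1 3.43 (adjusted p = 0.00206) and Myh10, a non-muscle myosin, 3.59 (adjusted p = 0.00149). On the lower side the same rule named Anxa3 (-7.35), Milr1 (-7.25), the flippase gene Atp8b4 (-7.03) and Ms4a6c (-6.83) beside genes described above.

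Only the 149 genes named by rule were checked singly in the fit of all 22 WT libraries, which kept 1159 of the 2282 calls. Other genes in the text may have lost their call in it. Among the genes checked, it ended the call of further ones described above, with the direction kept in each. Among those higher in MEPs they were, each with its adjusted p, Aldh1a7 (0.128), Slc25a21 (0.121), Slc38a5 (0.0848), Col5a1 (0.133), Myh10 (0.0792), Optn (0.593), Slc16a1 (0.193), Mrpl35 (0.473) and Mrpl50 (0.467). Among those lower in MEPs they were Csf2rb (0.0685), Adgre1 (0.0745), Pdgfrb (0.112), Ifitm3 (0.0548), Idh1 (0.152), Dnmt3b (0.346), Pmaip1 (0.11), Dusp1 (0.066), Myct1 (0.0618) and Mxd3 (0.336). Cox6c, higher in MEPs, fell short of 2-fold in that fit, at a log2 fold change of 0.98.

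Levels in the other WT populations place the difference. All 22 WT libraries were scaled together here, so CPM values differ slightly from those above. Gata1 was highest in MEPs, 223 CPM (208 to 257), then CMPs, 84.3 (73.4 to 103), then long-term stem cells (LT-HSCs), 20.1 (13.6 to 27.02), with at most 7.74 in any library of the other populations. Klf1 was at 291 CPM in MEPs (224 to 382) and 46.5 in CMPs (25.9 to 70.2), and at or below 3.14 CPM in every other library. MEPs thus had the highest levels of both factors among the 6 populations and CMPs the next, with separate ranges. Pf4 ran the other way: CMPs had 549 CPM (432 to 696), LT-HSCs 336 (321 to 351), MEPs 65.01 (6.29 to 129.7), and the range of MEPs overlapped those of short-term stem cells (ST-HSCs) and granulocyte-macrophage progenitors (GMPs).

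For Mpo and Spi1, CMPs stood between MEPs and GMPs. Mpo was at 20882 CPM in GMPs, 2320.5 in CMPs and 22.8 in MEPs, and Spi1 at 207, 101 and 7.38. LT-HSCs had 11.4 CPM of Spi1 (8.88 to 13.9), above the MEP range of 6.77 to 7.81. MEPs were the lowest of the 6 populations in Fos, 176 CPM (137 to 201) against 513 to 982 in CMPs and 414 to 966 in LT-HSCs, in Bcl2, 6.77 (4.15 to 7.94) against at least 18.4 in any other library, and in Tmem173, 2.46 (1.59 to 3.17) against at least 23.9. Mt2 was highest in MEPs, 312 CPM (263 to 369.9), and next in common lymphoid progenitors (CLPs), 83.2 (32.3 to 149), not in CMPs, 12.4 (5.94 to 19.2). Aldh1a7 was at 59.3 CPM in MEPs (49.7 to 68.8) and at most 5.57 elsewhere. These levels are a description, with no test between populations other than MEP against CMP.

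**Figure D4:**
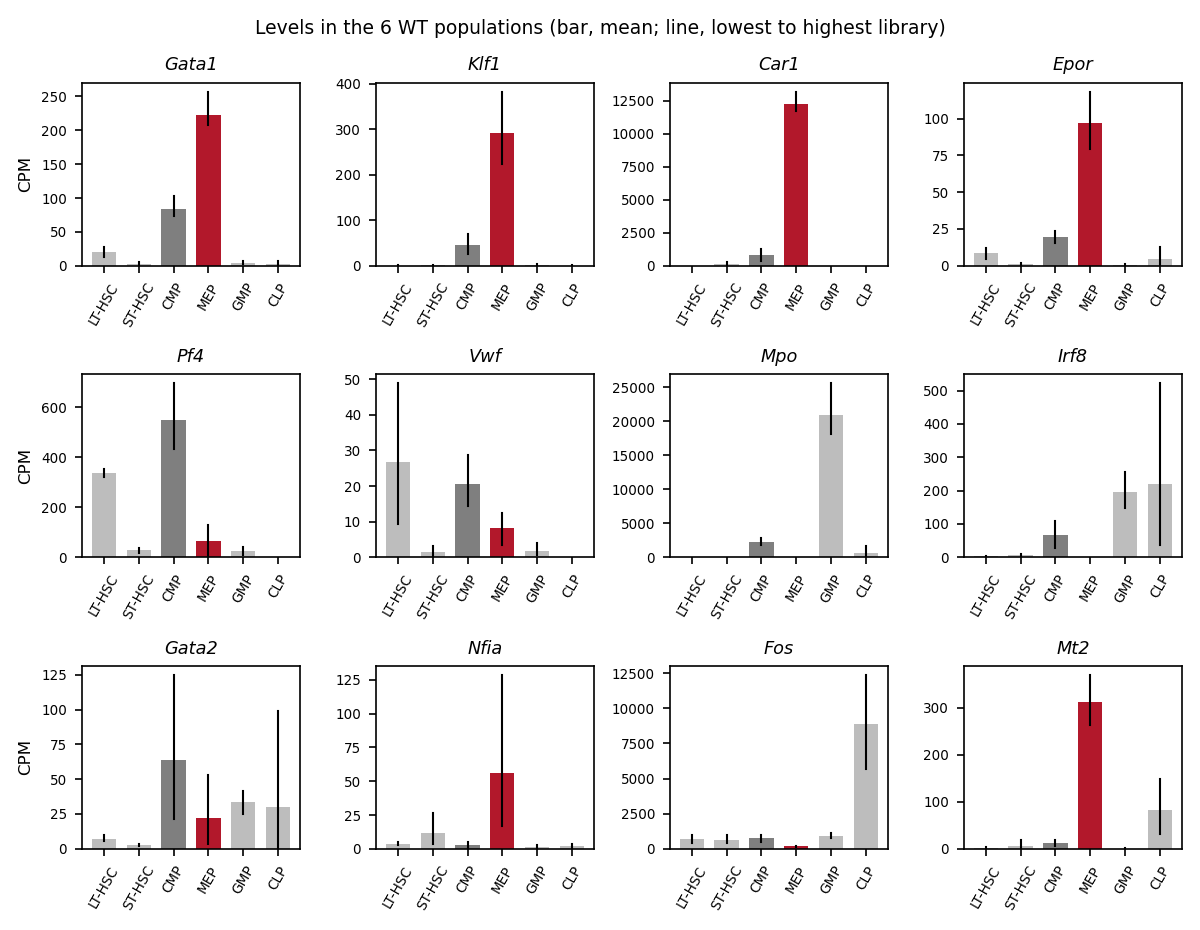
CPM, scaled over all 22 WT libraries, of 12 genes in the 6 WT populations; bars are means of 3 (LT-HSC, ST-HSC) or 4 libraries, lines run from the lowest to the highest library, CMPs are dark grey and MEPs red. Gata1, Klf1, Car1 and Epor peak in MEPs, Pf4 in CMPs and Mpo in GMPs, and Fos is lowest in MEPs.

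The contrast was repeated in the libraries labelled Tet2 knockout (Tet2KO), 4 CMP and 4 MEP, which share no library with the WT comparison. Tet2 itself stood at 26.6, 6.28, 15.01 and 19.1 CPM in these CMPs and 12.6, 13.4, 7.27 and 12.1 CPM in these MEPs, which overlap the WT values given above. Counts over the whole gene do not show whether the deleted part was transcribed, so they check no label. There 305 genes were called higher in MEPs, 1.95% of 15647 tested, and 1254 lower, 8.01%. Of the 566 genes called higher in WT, 213 were called higher in Tet2KO, which is 37.6% of the WT list and 69.8% of the Tet2KO list. Of the 1716 called lower, 911 were called lower in Tet2KO, 53.1% and 72.6% of the lists. No gene was called in opposite directions (0 of 2282). Of those tested in both, 541 of 556 higher genes and 1614 of 1641 lower genes had the same sign.

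Globin and erythroid effector genes had a smaller median log2 fold change in Tet2KO, and transcription factors of the erythroid and shared GATA network did not. The median over the 24 transcription factors was 0.41 in Tet2KO and 0.32 in WT, with 4 called higher in each. Car1 stood at 2598, 3703, 3057 and 5481 CPM in the 4 Tet2KO CMP libraries and 13797, 16938, 14745 and 19046 CPM in the 4 Tet2KO MEP libraries, a log2 fold change of 2.12 against 3.87 in WT. For Klf1 it was 1.06 against 2.67, for Rhd 1.47 against 3.68 and for Mt2 2.18 against 4.67, while Gata1 had 1.22 against 1.43. The median over the 36 erythroid effector genes was 1.10 in Tet2KO and 2.36 in WT, and 16 of them were called higher. Over the 556 genes called higher in WT the medians were 1.04 and 1.56, and over the 299 genes called higher in Tet2KO and tested in both they were 1.36 and 1.78. A list called in one genotype favours larger changes in that genotype. Megakaryocyte genes had -2.83 in Tet2KO and -2.35 in WT over the 26 tested in both, and primary granule genes -4.69 and -4.85. The difference between the genotypes was tested as an interaction over 17569 genes. edgeR called 1 gene, 0.00569%, and 1342 had an unadjusted p under 0.05, whereas DESeq2 called 277. The smaller differences of Car1 (adjusted p = 0.321), Klf1 (0.347), Rhd (0.321) and Mt2 (0.067) did not pass edgeR's interaction test. The gene called was Slc5a2, a sodium-glucose carrier, at 0 in every WT CMP library, 4.93, 1.9001, 3.69 and 3.21 CPM in WT MEPs, 0.327, 2.03, 0.885 and 2.24 CPM in Tet2KO CMPs and 1.498, 3.09, 2.12 and 2.44 CPM in Tet2KO MEPs (interaction -6.28 on the log2 scale, adjusted p = 0.0196). With the replicate number as a block no gene was called, and without 1 of the 16 libraries the count ranged from 0 to 31, the highest being without WT CMP replicate 2.

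**Figure D5:**
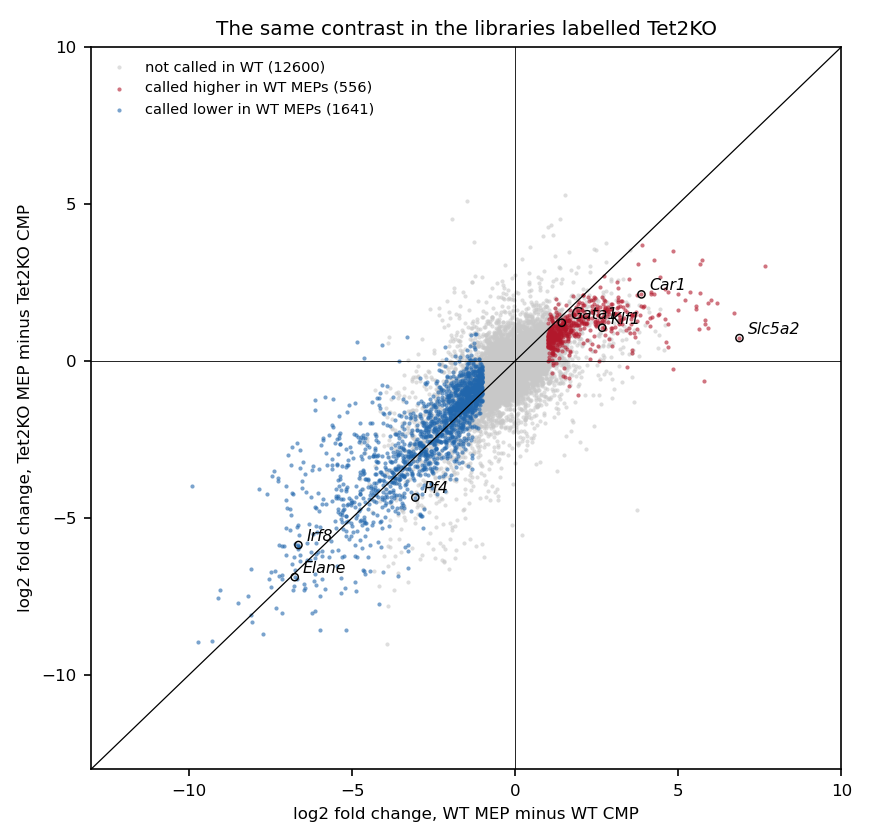
Log2 fold change, MEP minus CMP, of each gene tested in both genotypes, in WT (x axis) and in libraries labelled Tet2KO (y axis); red points were called higher and blue points lower in WT MEPs, and the diagonal marks equal change. Nearly all called genes lie in the quadrants of equal sign (541 of 556 red and 1614 of 1641 blue), with Car1 at 3.87 in WT and 2.12 in Tet2KO.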

How the data were processed

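RNA of sorted bone marrow progenitors was sequenced, and 4 WT CMP and 4 WT MEP libraries were compared. The authors trimmed reads with Trim Galore (0.6.7 per the labels), aligned them with HISAT2 (listed as version 7.5.0 in the submitters' processing notes) to mm10 by the methods, and deposited raw read counts per gene (Ensembl identifiers with symbols). The labels list mm9 beside mm10. The counting program, annotation and strand setting are not given in the sources used here, so overlapping, antisense and near-identical genes are uncertain. Samples were grouped by the labels' titles and genotype.

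Counts were tested in R 4.3.3 with edgeR 4.0.16 (TMM scaling, filterByExpr, quasi-likelihood test, prior count 2, Benjamini-Hochberg adjustment). A call needed an adjusted p of at most 0.05 and 2-fold. CPM values are TMM-scaled, except the sums of cell type markers, which use the library totals. The SE is the absolute log2 fold change divided by the square root of F. The floor of 3 counts per library covers counting error only. DESeq2 1.42.0 and the settings given in the closing section served as alternatives, of which no scaling and upper-quartile scaling were added after the data had been seen. The code was tested on simulated counts. At the adjusted p alone, 48 of 192 simulated 2-fold changes (25%) and 105 of 188 simulated 4-fold changes (55.9%) were recovered, with 0 in the wrong direction. Gene positions are from GENCODE vM21 (mm10), and promoter sequences from RefSeq.

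Gene lists were written from general knowledge, and the comparison, lists and named genes were chosen with earlier results of these data known. Named genes were, in each direction, the 12 called genes with the largest change among those with at least 50 CPM in the higher group, separate groups and no predicted symbol. To these came up to 4 called members of each list with the highest level and 35 lineage genes set by name. Pklr, Epb42, Alas1, Bcl2l1 and any further genes in the text were added with their values in view. The remaining libraries of the series were not analysed here, and a few genes are not reported here.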

Additional observations from a re-analysis of the deposited data

Results flagged for a closer look

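In 13 of 283 groups of 4 libraries over the named genes, 4.59%, one library stood apart by Dixon's ratio (gap to the nearest library over the whole range, above 0.829). Chance flags about 1 group in 20. MEP replicate 4 was the highest library in 4 of them: Hba-a1 (256 CPM against at most 117 in the other MEPs, ratio 0.833), Hbb-bs (39.5 against at most 18.7, ratio 0.917), Gata1 (277 against at most 238, ratio 0.883) and Atp8b4 (1.70 against at most 0.258, ratio 0.849). CMP replicate 4 was highest in Ctsg (1603 against at most 1176 CPM, ratio 0.882) and Tyrobp (221 against at most 147, ratio 0.839) and lowest in Urod (98.1 against at least 113, ratio 0.841). CMP replicate 2 was highest in Cox6c (278 against at most 232 CPM, ratio 0.915) and Emcn (13.7 against at most 7.46, ratio 0.863), and CMP replicate 5 was lowest in Cenpa (112 against at least 139.8, ratio 0.829). MEP replicate 3 was highest in Car1 (14731 against at most 13190.0 CPM, ratio 0.904), MEP replicate 2 in Pdgfrb (2.11 against at most 1.05, ratio 0.864), and MEP replicate 5 was lowest in Spi1 (7.38 against at least 8.27, ratio 0.856).

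The difference between MEPs and CMPs differed between genotypes for Slc5a2 by edgeR's interaction test (-6.28 on the log2 scale, adjusted p = 0.0196). It was at 0 in all 4 WT CMP libraries and at 4.93, 1.9001, 3.69 and 3.21 CPM in WT MEPs, at least 81.5-fold higher against the floor, whereas the Tet2KO libraries ranged over 0.327, 2.03, 0.885 and 2.24 CPM in CMPs and 1.498, 3.09, 2.12 and 2.44 CPM in MEPs.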

How the results depend on the processing

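Against 566 genes higher and 1716 lower, the fit of all 22 WT libraries called 186 and 1105, and 1947 were higher at any fold. DESeq2 called 772 and 2416, RLE scaling 566 and 1718, no low-count filter 521 and 1552, no scaling 408 and 2020, and upper-quartile scaling 633 and 1630. Leaving out 1 library gave 519 to 654 higher and 1488 to 1694 lower. No gene of the 2282 was called in the opposite direction under any of these. Of 149 named genes, 39 lost their call in the fit of all 22 WT libraries, 9 without scaling, 2 with DESeq2, 2 with upper-quartile scaling and 1 each without the filter and with the block. The cause was not tested.

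Whether the replicate numbers pair the libraries by mouse was not settled. Same-numbered CMPs and MEPs deviated together at correlations of 0.06, 0.15, 0.08 and 0.07, all above 0. Pairs of different numbers ran from -0.098 to 0.10, most of them below 0. CMP replicates 2, 3 and 4 correlated best with the MEP library of their own number, and CMP replicate 5 with MEP replicate 4. With the replicate block the calls were 517 and 1489 in WT, 279 and 1031 in Tet2KO and 0 for the interaction. In Tet2KO, DESeq2 called 489 and 2135, and leaving out 1 library gave 250 to 346 higher and 1006 to 1314 lower. For the interaction DESeq2 called 277, and leaving out 1 library gave 0 to 31.

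The list medians near 0 changed sign: DNA replication was -0.083 without scaling, and mitosis was -0.14 without scaling and -0.0017 in the fit of all 22 WT libraries. Without 1 library, mitosis ran from -0.051 (without CMP replicate 3, and below 0 also without MEP replicate 4 or 5) to 0.12, the p53 list from -0.29 to 0.027 (above 0 without MEP replicate 3) and histones from -0.37 to 0.22 (above 0 without CMP replicate 4 or 5 or MEP replicate 3). Alas2 ran from -1.49 to 0.51 (above 0 without CMP replicate 2). Without scaling the medians of 25 lists moved by more than their spread. With 4 libraries a group, a gene that was not called may still differ, also by more than 2-fold.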
